A study of Mus musculus with 2 samples.

Results

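The 10 genes described here encode receptors by which T cells receive costimulatory and inhibitory signals. They are Cd28 and Icos, the TNF receptor family members Tnfrsf4, Tnfrsf9 and Tnfrsf18, and the inhibitory receptors Ctla4, Pdcd1, Lag3, Havcr2 and Tigit. They were taken by symbol from the 32285 genes of both count matrices, and all 10 were present. Their transcripts were measured by droplet single-cell RNA sequencing of immune cells from mouse colon lamina propria, the connective tissue beneath the gut epithelium. There were 2 libraries, each the only library of its group. The library titled Runx3_fl and the library titled Runx3 come from a comparison of RUNX3 fl/fl littermates with RUNX3 fl/fl-Lyz2-Cre mice, in which Cre is driven by Lyz2 and acts in myeloid cells. The floxed allele is shared by both genotypes, and since no label says which library carried Cre, the libraries keep their titles here. According to the study the cells were pooled from young adult male mice, and the labels describe them as cd11b+, a myeloid surface marker. With 1 library per group no difference between libraries has a replicate check, and genotype, pool and library preparation cannot be told apart.

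A T cell is activated when antigen recognition is joined by a costimulatory signal, classically through CD28, which binds CD80 and CD86 on antigen-presenting cells. Activated T cells then display ICOS and receptors of the TNF receptor family, which sustain division and survival, together with inhibitory receptors such as CTLA-4, which competes for the same ligands as CD28. Regulatory T cells, which carry Foxp3 and are abundant in the healthy colon, express CTLA-4 and several TNF receptor family members without further stimulation.

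Of the 10 genes, Cd28, Ctla4 and Icos lie next to each other, as do Tnfrsf4 and Tnfrsf18, and the others lie apart. In the GENCODE M21 annotation on GRCm38, the same assembly as mm10, Cd28 (ENSMUSG00000026012) spans chr1:60716800-60773359, Ctla4 (ENSMUSG00000026011) chr1:60887000-60915832 and Icos (ENSMUSG00000026009) chr1:60977927-61000320, all on the plus strand. A gap of 113640 bases separates Cd28 from Ctla4, and 62094 bases separate Ctla4 from Icos. Tnfrsf4 (ENSMUSG00000029075) at chr4:156013843-156016612 and Tnfrsf18 (ENSMUSG00000041954) at chr4:156026164-156028895 are 9551 bases apart on the plus strand, and Tnfrsf9 (ENSMUSG00000028965) lies on the same chromosome at chr4:150914562-150946102. Pdcd1 (ENSMUSG00000026285) spans chr1:94038305-94052553, Lag3 (ENSMUSG00000030124) chr6:124904361-124911705 and Tigit (ENSMUSG00000071552) chr16:43648867-43664146, all on the minus strand, and Havcr2 (ENSMUSG00000020399) spans chr11:46454935-46481255 on the plus strand. Ctla4 overlaps the pseudogene Rpl18-ps1 and Icos overlaps Gm37039 on the same strand, so their counts could hold reads of these neighbours.

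Because RUNX3, the factor deleted in the study's mice, is known to bind the letters TGTGGT or TGCGGT, the RefSeq promoters of the receptors, 250 bases before to 50 bases after the start on GRCm38.p6, were searched for these letters on both strands. The table held 8 starts of 7 receptors. A match was present at 1 start each of Tnfrsf9, Havcr2 and Tigit, that is 3 of 8 starts, beside 22.4% of all 32851 promoters of that length. The 3 matched promoters and that of Ctla4, which held none, are shown in the direction of transcription with the matching letters in capitals. The window of Tnfrsf9 is its second listed start, at chr4:150927749-150928048 on the plus strand, with the match at position 11. That of Havcr2 is chr11:46454681-46454980 on the plus strand, with the match at position -46. That of Tigit is chr16:43664135-43664434 on the minus strand, with the match at position -140 on the opposite strand of the gene, so its letters read ACCACA. That of Ctla4 is chr1:60908775-60909074 on the plus strand.
Tnfrsf9: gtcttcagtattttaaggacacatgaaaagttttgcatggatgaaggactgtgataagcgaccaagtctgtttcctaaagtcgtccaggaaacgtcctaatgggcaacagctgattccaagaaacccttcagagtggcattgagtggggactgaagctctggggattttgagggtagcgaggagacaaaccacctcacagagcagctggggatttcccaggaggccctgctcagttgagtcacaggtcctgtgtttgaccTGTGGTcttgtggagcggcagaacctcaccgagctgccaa
Havcr2: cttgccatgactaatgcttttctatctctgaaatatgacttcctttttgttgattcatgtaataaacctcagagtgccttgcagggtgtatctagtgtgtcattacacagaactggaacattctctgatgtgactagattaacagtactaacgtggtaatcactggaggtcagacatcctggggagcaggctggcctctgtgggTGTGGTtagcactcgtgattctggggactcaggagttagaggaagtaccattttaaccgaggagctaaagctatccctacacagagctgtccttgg
Tigit: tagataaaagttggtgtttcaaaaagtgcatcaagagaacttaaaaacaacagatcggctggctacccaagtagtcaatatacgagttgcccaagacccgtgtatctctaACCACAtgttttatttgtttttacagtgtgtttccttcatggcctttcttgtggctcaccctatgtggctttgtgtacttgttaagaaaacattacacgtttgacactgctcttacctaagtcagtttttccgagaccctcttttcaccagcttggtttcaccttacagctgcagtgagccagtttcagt
Ctla4: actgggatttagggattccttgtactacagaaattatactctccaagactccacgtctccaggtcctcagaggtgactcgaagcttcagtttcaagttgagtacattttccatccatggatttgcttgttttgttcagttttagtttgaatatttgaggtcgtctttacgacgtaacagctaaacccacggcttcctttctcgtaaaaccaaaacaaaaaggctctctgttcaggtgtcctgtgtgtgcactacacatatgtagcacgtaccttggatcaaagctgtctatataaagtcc
The letters of 3 activation-linked factors were searched in the same way. The NFAT-type letters TGGAAA were found at Ctla4, Tnfrsf4 and the first start of Tnfrsf9, beside 21.4% of all promoters. The AP-1-type letters TGANTCA, which read the same on both strands, were found at Havcr2 and at the second start of Tnfrsf9, beside 7.81% of all promoters. The NF-kB-type letters, GGG and CC with 5 bases of any kind between them, were found only at the second start of Tnfrsf9, beside 50.8% of all promoters. These matches describe letters in short windows and are not measured binding sites.

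Cells with 200 to 6000 genes and at most 15% mitochondrial UMIs were kept, 11885 of 12968 in the Runx3_fl library and 8167 of 8953 in the Runx3 library, and were sorted into classes by their own transcripts. CD4 T cells had Cd4 and Cd3e UMIs and no Foxp3 UMI (1519 cells in Runx3_fl and 168 in Runx3), CD8 T cells had Cd8a, Cd8b1 and Cd3e UMIs (1213 and 76), Tregs had Foxp3 and Cd3e UMIs (38 and 60), NK cells had Ncr1 but no Cd3e UMIs (1396 and 127), and myeloid cells had Csf1r UMIs (2679 and 3154). B cells (133 and 837), with Cd79a and Ms4a1 but neither Cd3e nor Csf1r, served as a class that should lack most of the receptors. Kept cells had 1.36e+08 UMIs in all in Runx3_fl and 6.56e+07 in Runx3, and the median per CD4 T cell was 14324 and 9280. Levels are UMIs of a gene per 1000000 UMIs of all genes (CPM), summed over the cells of a class in a library, with exact Poisson 95% intervals that cover counting error only. The 2 libraries shared 37 cell barcodes.

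Several measurements set the libraries apart before any receptor is considered. In Runx3_fl, 2756 of 11885 cells had UMIs of Xist and none of the Y-linked genes and 7059 had the reverse, whereas Runx3 had 0 cells of the first kind and 12 Xist UMIs in all. The Runx3_fl counts go against the all-male pool that the study describes, so what this library holds is not settled. T cell classes held droplets with myeloid transcripts, since 10.8% of CD4 T cells in Runx3_fl and 35.7% in Runx3 had a Csf1r UMI, and the summed level of 6 myeloid markers in that class was 593 and 1628 CPM. Each of the 6 was higher in Runx3. Ly6c2 held 280 and 779 CPM of these sums, and it also stood at 473 CPM in B cells of Runx3_fl, which lack Csf1r by rule. Among Tregs a Csf1r UMI was seen in 39.5% in Runx3_fl and 31.7% in Runx3. The summed level of 5 T cell markers in CD4 T cells was 1704 and 798 CPM. Markers of NK cells also differed within T cell classes, at 1259 and 104 CPM in CD4 T cells, 4780 and 707 CPM in CD8 T cells and 2418 and 34.2 CPM in Tregs, where Eomes was at 0 in Runx3. In CD8 T cells of Runx3_fl most of this sum was Gzma at 3364 CPM and Nkg7 at 1136 CPM. Klrb1c stood there at 7.15 CPM, against 228 CPM in NK cells, and Klrd1 at 144 CPM, against 393 CPM. Whether these transcripts came from the T cells or from mixed droplets was not tested. The labelled CD11b-positive gate did not remove lymphocytes from either library. Runx3 transcripts stood at 187 CPM in Runx3_fl and 209 CPM in Runx3 in myeloid cells, and at 251 and 177 CPM in CD4 T cells. The deleted exons are not given in the sources used here, so this gene does not check the titles.

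In CD4 T cells 9 of the 10 receptors were 2-fold or more lower in the Runx3 library and none was 2-fold higher, with a median log2 ratio of -1.66 (CPM plus 1, Runx3 over Runx3_fl). The same ratio had a median of 0.03 over the 9660 genes compared, of which 9.09% were 2-fold or more lower and 15.5% were 2-fold or more higher. A gene was compared when its mean level was at least 5 CPM. The largest difference was that of Ctla4, followed by Icos and Pdcd1, and Tnfrsf18 alone stayed within 2-fold.

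The costimulatory pair was abundant in CD4 T cells of Runx3_fl. Cd28, the receptor for CD80 and CD86, stood at 1225 CPM (95% interval 1212 to 1239) in Runx3_fl and 436 CPM (409 to 464) in Runx3, a level 2.81-fold lower (2.64 to 3.0). Icos, a Cd28 relative induced on activation, stood at 1313 CPM (1299 to 1327) and 330 CPM (306 to 354), 3.98-fold lower (3.70 to 4.29). Neither pair of intervals overlapped.

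The TNF receptor family members moved less evenly. Tnfrsf4, which encodes OX40, stood at 260 and 94.5 CPM, 2.75-fold lower in Runx3 (2.40 to 3.17). Tnfrsf9, the receptor for the TNF-family ligand Tnfsf9, stood at 174 and 58.3 CPM, 2.98-fold lower (2.50 to 3.58). When cells were thinned to 2000 UMIs before the class rules, 293 and 26 CD4 T cells were left. Tnfrsf9 then stood at 155 and 346 CPM, a log2 ratio of 1.15 in the opposite direction. The Runx3 value rests on few UMIs, and no interval is given for it. Tnfrsf18, which encodes GITR and neighbours Tnfrsf4 on the chromosome, stood at 105 and 71.4 CPM, a difference of 1.47-fold (1.25 to 1.74) that was below the 2-fold limit although its interval excluded equality.

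All 5 inhibitory receptors were lower. Ctla4 stood at 1189 CPM (1175 to 1202) in Runx3_fl and 294 CPM (272 to 317) in Runx3, 4.04-fold lower (3.74 to 4.38). Havcr2, which encodes TIM-3, stood at 215 and 60.1 CPM, 3.57-fold lower (3.01 to 4.28), and Tigit, a receptor for the ligand encoded by Pvr, at 77.3 and 22.2 CPM, 3.49-fold lower (2.63 to 4.73). Pdcd1, the gene of the PD-1 protein, stood at 33.5 and 8.59 CPM, and Lag3, which binds MHC class II, at 35.1 and 11.8 CPM. These last rested on 19 and 26 UMIs in Runx3, and their folds of 3.90 (2.48 to 6.52) and 2.99 (2.02 to 4.60) carried the widest intervals of the class.

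**Figure D1:**
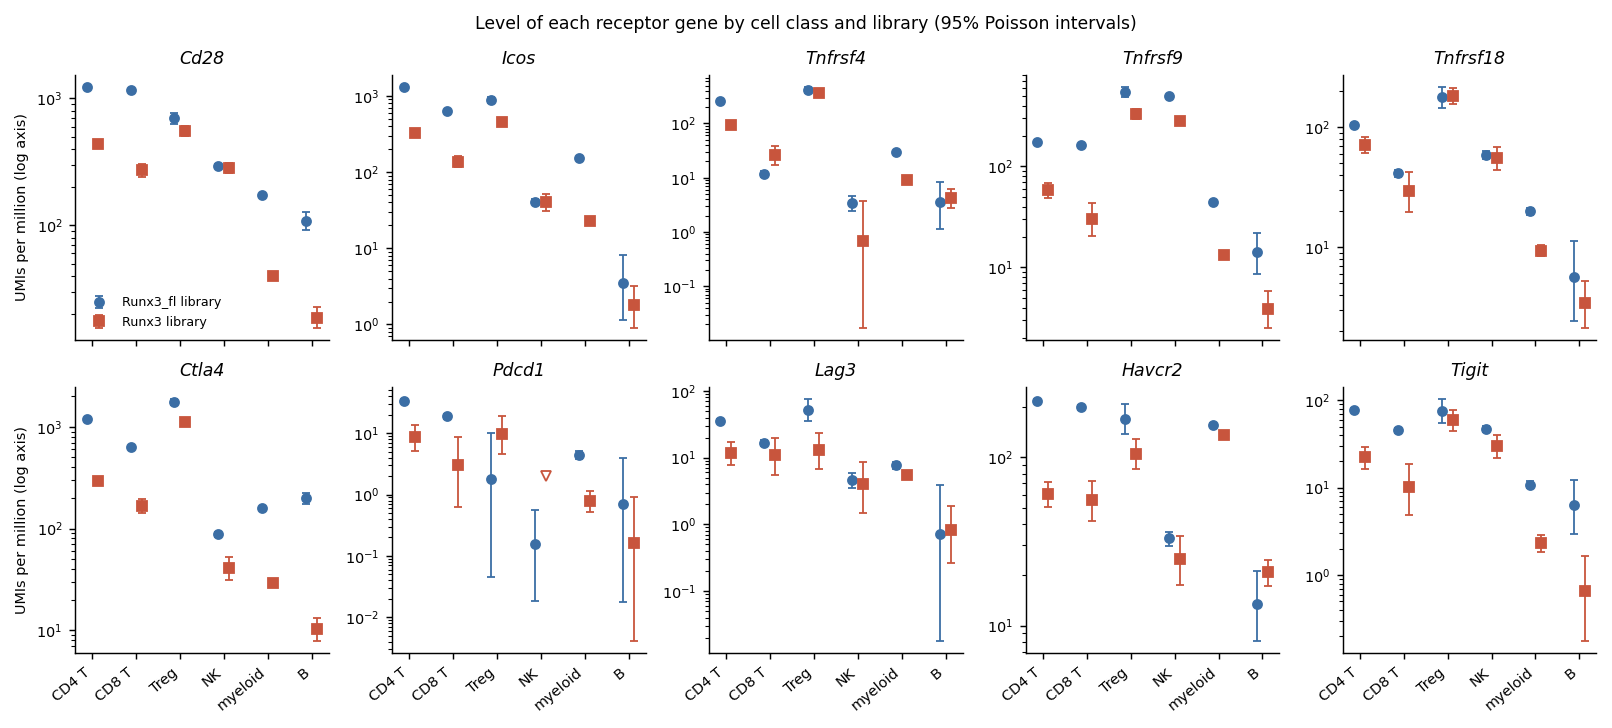
Level of each of the 10 receptors in CPM (log axis) in the 5 cell classes and in B cells, with circles for Runx3_fl, squares for Runx3, exact Poisson 95% intervals as bars, and an open triangle at the level of 3 counts where a library had 0 UMIs. Ctla4 in CD4 T cells stands at 1189 in Runx3_fl and 294 in Runx3, and Treg points of the libraries lie closer together, at 1753 and 1120.

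CD8 T cells, of which only 76 were found in Runx3, showed a median log2 ratio of -1.98, with 7 of 10 receptors 2-fold or more lower and 1 higher, beside 10.7% and 15.3% of the 9511 genes compared. Cd28 stood at 1171 CPM in Runx3_fl and 272 CPM in Runx3, 4.31-fold lower (3.82 to 4.88), and Icos at 641 and 137 CPM, 4.67-fold lower (3.94 to 5.57). Ctla4 stood at 629 and 168 CPM, 3.75-fold lower (3.22 to 4.40). The 7 lower receptors were Cd28, Icos, Tnfrsf9, Ctla4, Pdcd1, Havcr2 and Tigit.

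The remaining CD8 T cell differences ranged more widely. Tnfrsf9 stood at 162 CPM in Runx3_fl and 30.3 CPM in Runx3, 5.35-fold lower (3.74 to 7.94), the largest such difference among receptors with 10 or more UMIs in both libraries. Havcr2 stood at 198 and 55.5 CPM (3.56-fold, 2.73 to 4.74) and Tigit at 45.5 and 10.1 CPM (4.50-fold, 2.44 to 9.42). Pdcd1 stood at 18.8 and 3.03 CPM on 3 UMIs in Runx3 (6.22-fold, 2.11 to 30.3), while Lag3 at 16.7 and 11.1 CPM and Tnfrsf18 at 41.2 and 29.3 CPM had intervals of the fold that included 1.

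Tnfrsf4 went the other way in CD8 T cells. It stood at 11.9 CPM in Runx3_fl and 26.2 CPM in Runx3, 2.20-fold higher (1.41 to 3.31) on 26 UMIs. In Runx3 it was concentrated in droplets that also carried Csf1r, with 22 UMIs and 47.7 CPM in the 22 CD8 T cells with a Csf1r UMI and 4 UMIs and 7.55 CPM in the 54 without. In Runx3_fl the same groups stood at 22.9 and 10.2 CPM. Among CD8 T cells that passed no other class rule and had no Cd79a UMI, Tnfrsf4 stood at 8.52 and 9.50 CPM. The 46 such cells of Runx3 had no Csf1r UMI, so their value rests on at most 4 UMIs. That is too few to tell whether the 2-fold difference remained.

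In Tregs the median log2 ratio was -0.49, with Lag3 the only receptor 2-fold or more lower and Pdcd1 the only receptor 2-fold or more higher, beside 6.84% and 11.4% of the 9513 genes compared. Ctla4 stood at 1753 CPM (1644 to 1866) in the 38 Tregs of Runx3_fl and 1120 CPM (1052 to 1191) in the 60 Tregs of Runx3, 1.56-fold lower (1.43 to 1.71). Icos stood at 883 and 451 CPM, 1.96-fold lower (1.71 to 2.24), and Tnfrsf9 at 552 and 332 CPM, 1.66-fold lower (1.41 to 1.96). These folds were smaller than those of CD4 T cells, and the difference between the classes was not tested.

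The other Treg levels were close between the libraries or rested on few UMIs. Tnfrsf4 stood at 420 and 361 CPM, Tnfrsf18 at 178 and 182 CPM and Tigit at 75.7 and 59.5 CPM, and each fold interval included 1. Cd28 stood at 700 and 551 CPM (1.27-fold lower, 1.11 to 1.45) and Havcr2 at 169 and 105 CPM (1.62-fold lower, 1.20 to 2.18). Lag3 stood at 52.3 CPM on 29 UMIs in 9 cells of Runx3_fl and 13.2 CPM on 12 UMIs in 10 cells of Runx3. Pdcd1 had 1 UMI in Runx3_fl and 9 UMIs in Runx3, a 5.50-fold ratio whose interval of 0.763 to 241 included 1.

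In NK cells the T cell costimulators were close between libraries. Tnfrsf9 was the leading receptor in Runx3_fl and was level with Cd28 in Runx3. The median log2 ratio was -0.30 over all 10 receptors. Of the 7 that reached a mean of 5 CPM, 1 was 2-fold or more lower and none higher, beside 1.36% and 6.05% of the 9186 genes compared. Tnfrsf9 stood at 499 CPM (487 to 512) in Runx3_fl and 284 CPM (257 to 312) in Runx3, 1.76-fold lower (1.60 to 1.95). Cd28 stood at 294 and 283 CPM, Icos at 41.1 and 40.1 CPM and Tnfrsf18 at 58.5 and 54.8 CPM, with fold intervals that included 1. The level of Cd28 in B cells was 108 CPM in Runx3_fl and 18.8 CPM in Runx3.

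Among the inhibitory receptors of NK cells, Ctla4 at 88.1 and 40.8 CPM was the gene past 2-fold (2.16-fold lower, 1.67 to 2.84). In B cells Ctla4 stood at 198 CPM in Runx3_fl, above the NK level, and at 10.3 CPM in Runx3, below it. Subtracting the B cell level therefore left no Ctla4 in NK cells of Runx3_fl, and the resulting log2 ratio of 4.98 gives no direction. Icos stood at 3.55 and 1.80 CPM in the same B cells. Tigit stood at 46.4 and 30.1 CPM, 1.54-fold lower (1.14 to 2.14), against 6.39 and 0.653 CPM in B cells. Havcr2, at 32.9 and 24.7 CPM, was higher in NK cells with a Csf1r UMI, at 114 and 63.1 CPM, than in those without, at 25.9 and 8.55 CPM. Lag3 stood at 4.56 and 4.01 CPM, Tnfrsf4 had 44 UMIs in Runx3_fl and 1 in Runx3, and Pdcd1 had 2 and 0, where a count of 0 allows up to 2.01 CPM. The level of 4 neutrophil markers in this class was 45.8 CPM in Runx3_fl and 3936 CPM in Runx3, and its part in these values was not tested.

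Myeloid cells carried Havcr2 at nearly the same level in both libraries, and most other receptors at lower levels in Runx3. Havcr2, which macrophages and dendritic cells are known to express, stood at 156 CPM (152 to 160) and 135 CPM (132 to 139), and at 157 and 150 CPM in myeloid cells that passed no other class rule and had no Cd79a UMI. In all myeloid cells the median log2 ratio was -1.65 over the 10 receptors, with 7 of the 9 compared receptors 2-fold or more lower and none higher, beside 2.84% and 7.51% of the 9518 genes compared, whose median was 0.15. Ctla4 stood at 159 and 29.4 CPM, Icos at 152 and 23.0 CPM, and Cd28 at 172 and 39.7 CPM. The B cell level of Ctla4 in Runx3_fl, 198 CPM, was above the myeloid level. Subtracting it gave a log2 ratio of 4.33, which therefore gives no direction.

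The T cell markers of the same droplets also differed, with sums of 254 CPM in Runx3_fl and 72.9 CPM in Runx3. The part of T cell transcripts in the myeloid differences was not tested. In myeloid cells that passed no other class rule, where the T cell markers summed to 37.5 and 36.3 CPM, Ctla4 stood at 26.8 and 11.9 CPM, Icos at 22.1 and 11.3 CPM and Cd28 at 35.4 and 21.2 CPM. The median log2 ratio there was -0.62 with 1 receptor 2-fold lower, a count with no share of all genes beside it. Tnfrsf9 stood at 44.8 and 13.2 CPM in all myeloid cells and at 15.0 and 8.60 CPM in this subset. The other receptors were sparse in myeloid cells, with Tnfrsf4 at 29.3 and 9.0 CPM, Tnfrsf18 at 19.9 and 9.39 CPM, Tigit at 10.8 and 2.32 CPM, Lag3 at 7.65 and 5.59 CPM and Pdcd1 at 4.41 and 0.782 CPM. In myeloid cells that passed no other class rule Tnfrsf4 stood at 3.48 and 4.01 CPM, the opposite direction. In B cells Tnfrsf4, Tnfrsf18, Tigit, Lag3 and Pdcd1 each stood at 6.39 CPM or less. Cd28 stood at 108 and 18.8 CPM in B cells, which in Runx3_fl was above its level in myeloid cells that passed no other class rule.

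Cells with Cd3e UMIs that met none of the class rules, 576 in Runx3_fl and 244 in Runx3, had a median log2 ratio of -1.36, and the largest difference was Havcr2 at 156 and 27.2 CPM. Ctla4 stood at 621 and 126 CPM and Icos at 830 and 180 CPM.

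**Figure D2:**
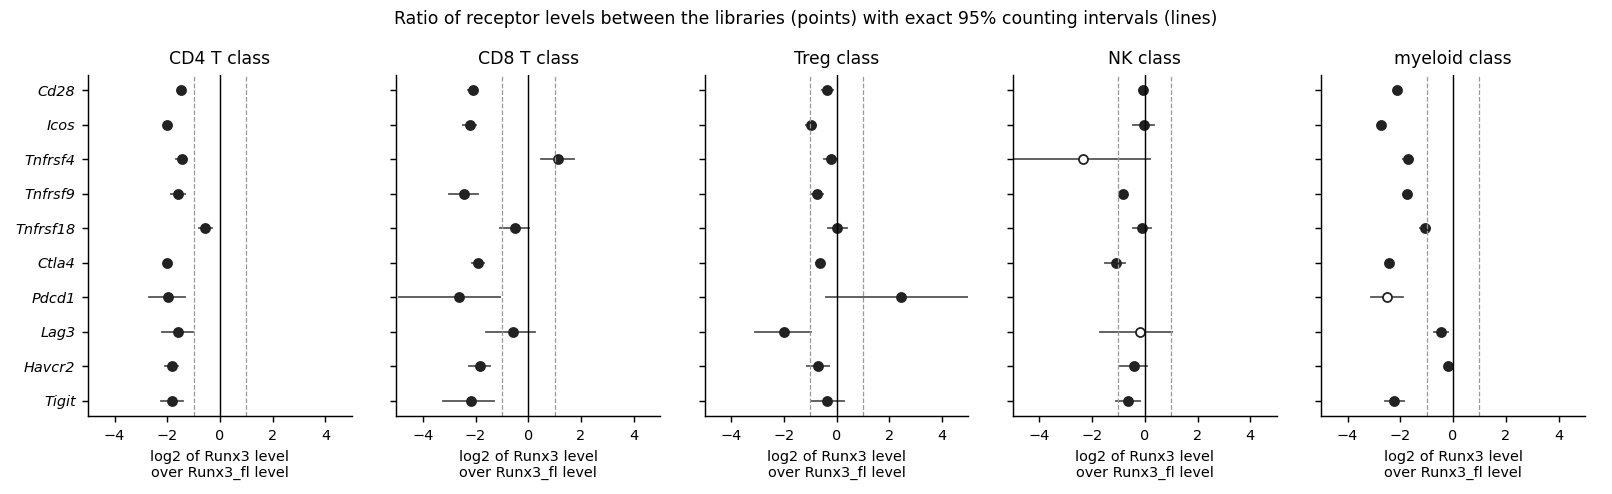
Log2 ratio of each receptor's level (Runx3 over Runx3_fl, nothing added, x axis) in each of the 5 classes, with exact 95% counting intervals as lines, open circles for receptors under a mean of 5 CPM and dashed lines at 2-fold. All 10 points of CD4 T cells lie left of 0, while Tnfrsf4 in CD8 T cells lies to the right, at 2.20-fold higher.

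The order of the classes differed between the libraries for 7 receptors and was the same for Tnfrsf9, Tnfrsf18 and Lag3. Treg was the highest class for 5 receptors in both libraries, namely Ctla4, Tnfrsf4, Tnfrsf9, Tnfrsf18 and Lag3. In Runx3_fl the other 5, Icos, Pdcd1, Havcr2, Tigit and Cd28, were highest in CD4 T cells, although Tigit in CD4 T cells and Tregs had overlapping intervals. Those of Lag3 in these 2 classes overlapped as well. In Runx3 Treg was the highest class for 9 receptors, and Havcr2 was highest in myeloid cells, at 135 CPM against 105 CPM in Tregs. The intervals of Tregs and CD4 T cells overlapped in Runx3 for Pdcd1 and Lag3.

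Tnfrsf4 separated CD4 from CD8 T cells more widely than the other receptors did in Runx3_fl. It stood at 420 CPM in Tregs, 260 CPM in CD4 T cells, 29.3 CPM in myeloid cells, 11.9 CPM in CD8 T cells and 3.40 CPM in NK cells, a CD4 to CD8 fold of 21.8 (19.2 to 24.9). In Runx3 the CD4 to CD8 fold was 3.60 (2.39 to 5.64). Cd28 and Havcr2 by contrast differed between CD4 and CD8 T cells of Runx3_fl by 1.05-fold and 1.09-fold. Tnfrsf9 ran Treg, NK, CD4 T, CD8 T and myeloid from highest to lowest in both libraries, and the Treg and NK intervals overlapped in each. It was 3.08-fold higher (2.96 to 3.21) in NK than in CD8 T cells of Runx3_fl and 9.36-fold higher (6.46 to 14.0) in Runx3.

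Compared with CD4 T cells of the same library, Tregs of Runx3_fl had a median log2 ratio of 0.27. Only Tnfrsf9 was 2-fold or more higher (3.17-fold, 2.82 to 3.56) and only Pdcd1 2-fold or more lower, beside 11.5% and 9.61% of the 9313 genes compared. In Runx3 the median was 1.06, with 5 receptors 2-fold or more higher and none lower, beside 5.00% and 5.10% of the 9758 genes compared. These were Tnfrsf9 (5.69-fold, 4.61 to 7.05), Tnfrsf4 (3.81-fold, 3.20 to 4.56), Ctla4 (3.81-fold, 3.45 to 4.21), Tigit (2.69-fold, 1.79 to 4.04) and Tnfrsf18 (2.55-fold, 2.03 to 3.19). The medians came closer, to 0.82 in Runx3_fl (21 Tregs) and 0.59 in Runx3 (36 Tregs), among cells that passed no other class rule and had no Cd79a UMI.

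The share of cells with a receptor UMI was compared after thinning every cell to 2000 UMIs, since shares depend on depth, with exact Clopper-Pearson 95% intervals. Ctla4 was seen in 79.2% of CD4 T cells in Runx3_fl (77.1 to 81.3) and 22.8% in Runx3 (16.6 to 29.9), against 98.4% and 52.4% before thinning. Icos was seen in 85.3% and 29.3% of CD4 T cells and Cd28 in 85.0% and 44.9%. B cells, with median depths of 6900 and 6270 UMIs before thinning, had Ctla4 in 12% and 1.58%, Icos in 0.752% and 0.121% and Cd28 in 7.52% and 1.21%, all below the CD4 T cell shares of the same library.

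The rarer receptors were seen in at most 2.26% of B cells in either library. In CD4 T cells Tnfrsf4 was seen in 34.3% and 10.2%, Havcr2 in 29.7% and 5.99%, Tnfrsf9 in 25.4% and 7.19%, Tnfrsf18 in 18.7% and 9.58% and Tigit in 14.0% and 3.59%. Pdcd1 at 6.65% and 1.80% and Lag3 at 7.05% and 2.99% were seldom detected in either library. In CD8 T cells Cd28 was seen in 87.2% and 30.3%, Icos in 66.2% and 19.7%, and Ctla4 in 62.2% and 21.1%. In Tregs Ctla4 was seen in 91.9% (78.1 to 98.3) and 75.0% (62.1 to 85.3) and Tnfrsf9 in 64.9% and 38.3%, and in NK cells Tnfrsf9 in 53.4% and 30.4%. Ctla4 was seen in 11.6% (10.0 to 13.4) and 7.20% (3.35 to 13.2) of NK cells. The B cell share of 12% (7.04 to 18.8) overlapped this in Runx3_fl, whereas that of 1.58% (0.843 to 2.68) lay below it in Runx3.

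Detection of several inhibitory receptors in 1 cell was counted next. Of thinned CD4 T cells, 39.5% (37.0 to 42.0) in Runx3_fl and 5.99% (2.91 to 10.7) in Runx3 had UMIs of 2 or more of the 5 inhibitory receptors, while 12.1% and 70.7% had none. In CD8 T cells 26.9% and 3.95% had 2 or more, in Tregs 29.7% and 20.0%, in NK cells 1.65% and 0.800%, and in B cells 0.752% and 0.121%. For the 3 TNF receptor family members, 2 or more were seen in 19.0% and 3.59% of CD4 T cells and in 59.5% and 30.0% of Tregs. These counts depend on the share of each receptor alone, and detection together beyond those shares was not tested.

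Pairs of receptors were then followed within CD4 T cells. Icos was seen in 87.5% of CD4 T cells with Ctla4 and 76.8% of those without in Runx3_fl, and in 63.2% of 38 cells with Ctla4 and 19.4% of 129 cells without in Runx3. Ctla4 was seen in 80.8% of CD4 T cells with Cd28 and 70.5% of those without in Runx3_fl, and in 36.0% and 12% in Runx3. Tcf7, a transcription factor of naive and memory T cells, ran the other way, with overlapping intervals in both libraries. In Runx3 it was seen in 23.7% (11.4 to 40.2) of Ctla4-positive and 45.0% (36.2 to 54.0) of Ctla4-negative CD4 T cells. In Runx3_fl the shares were 3.74% (2.74 to 4.97) and 6.67% (4.17 to 10.0). Not every receptor pair went together in both libraries. Ctla4 in Runx3_fl was seen in 79.6% of CD4 T cells with Havcr2 and 79.1% without, and in 82.5% with Tigit and 78.7% without. In Runx3 the Ctla4 share was higher with Havcr2 or Tigit, but on 10 and 6 such cells and with overlapping intervals. Tnfrsf4 was seen in 35.9% with Icos and 25.1% without in Runx3_fl, and in 10.2% with or without Icos in Runx3. These shares are descriptions, and the difference between libraries in them was not tested.

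**Figure D3:**
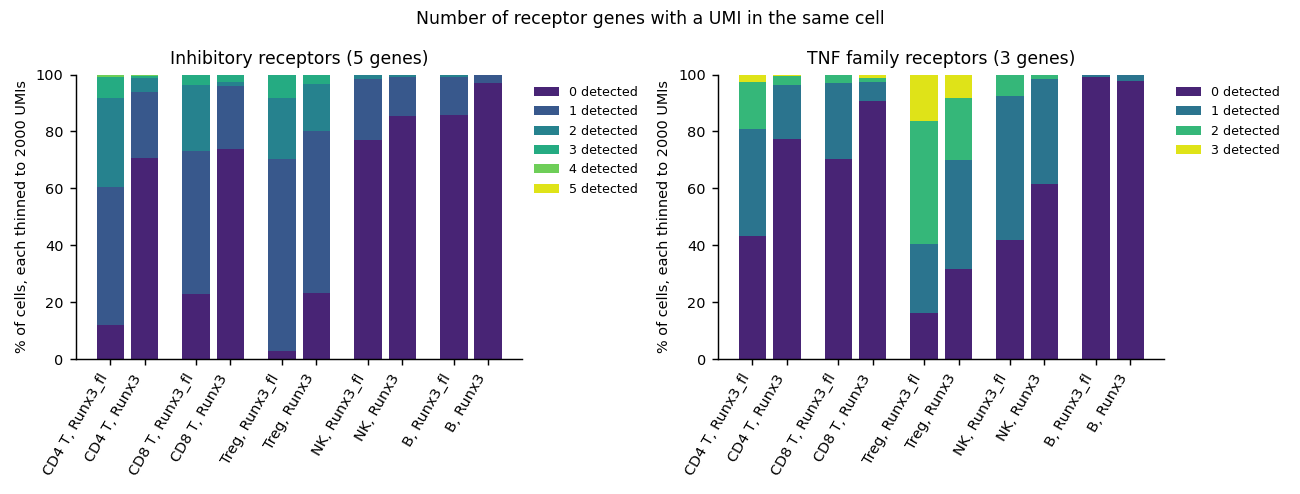
Stacked share of cells (percent, each cell thinned to 2000 UMIs) by the number of receptor genes detected, for the 5 inhibitory receptors on the left and the 3 TNF receptor family members on the right, in 5 classes of each library. The darkest segment, cells with no inhibitory receptor, takes 70.7% of CD4 T cells in Runx3 and 12.1% in Runx3_fl.

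Most genes of naive and circulating T cells differed in the opposite direction. Of 6 such genes compared in CD4 T cells, 5 were 2-fold or more higher in Runx3 and none lower, with a median log2 ratio of 2.11. Tcf7 stood at 27.5 and 257 CPM and S1pr1, which guides exit from lymphoid tissue, at 110 and 83.7 CPM. Of 7 compared genes of activated or tissue T cells, 5 were 2-fold or more lower and none higher, with a median of -2.81. Cxcr6, a chemokine receptor of tissue T cells, stood at 272 and 28.9 CPM and Cd44 at 690 and 626 CPM.

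CD4 and CD8 T cells were therefore split by whether Tcf7, Lef1 and Ccr7 together reached 500 CPM within the cell, a choice of genes and limit made after the data were seen. Cells above it made up 17.6% of CD4 T cells in Runx3_fl (267 cells) and 60.1% in Runx3 (101 cells), 12.9% and 55.3% of CD8 T cells, and 21.1% and 35% of Tregs. Within Runx3, CD4 T cells above the limit had lower levels of 9 receptors than those below, with a median log2 ratio of -0.90 over the 10 receptors. Ctla4 stood at 240 CPM above and 359 CPM below, Tnfrsf4 at 58.6 and 138 CPM, and Havcr2 at 37.1 and 88.1 CPM, but Cd28 at 460 and 406 CPM. Within Runx3_fl the same contrast had a median of -0.41, with its largest ratio in Lag3 (14.0 and 39.4 CPM), and Icos stood at 1326 and 1310 CPM. The share of all genes lower above the limit is not given, so the count of 9 receptors has no background beside it.

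In CD8 T cells of Runx3 the 10 receptors were each lower above the limit, a count that also has no share of all genes beside it. Ctla4 stood at 82.4 CPM in the 42 cells above the limit and 278 CPM in the 34 below, and Tnfrsf9 at 7.17 and 60.1 CPM, with a median of -0.92 over the 10 receptors. In CD8 T cells of Runx3_fl Ctla4 stood at 632 and 629 CPM and the median was 0.10.

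Among cells below the limit the libraries still differed. In CD4 T cells the median log2 ratio between libraries was -1.38 in place of -1.66 and 8 receptors in place of 9 were 2-fold or more lower, with Ctla4 at 1220 and 359 CPM and Icos at 1310 and 342 CPM. In CD8 T cells it was -1.31 in place of -1.98, with 7 receptors 2-fold or more lower in both, Ctla4 at 629 and 278 CPM and Icos at 629 and 178 CPM. Tregs below the limit had a median of -0.49. The share of all genes past 2-fold is not given for these cells, so the receptor counts have no background beside them. In the 67 such CD4 T cells of Runx3 the myeloid markers summed to 2123 CPM, against 628 CPM in Runx3_fl, and the part of mixed droplets in these values was not tested.

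**Figure D4:**
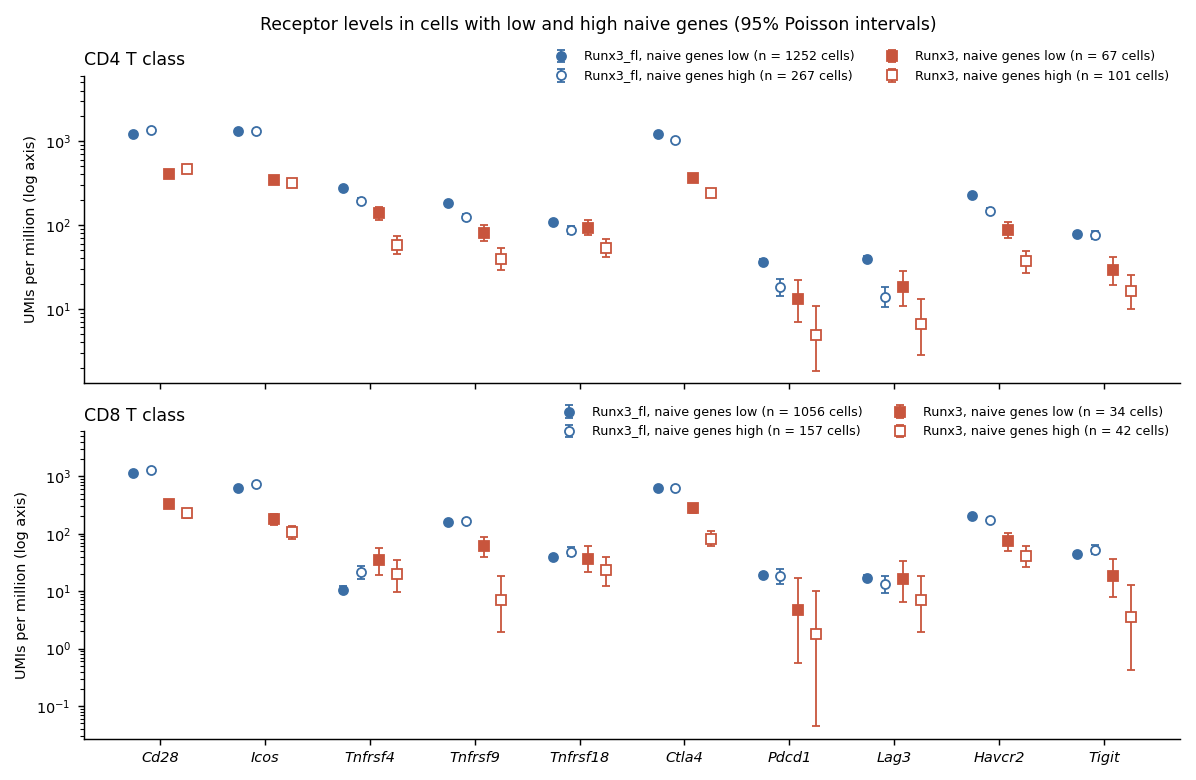
Level of the 10 receptors in CPM in CD4 and CD8 T cells of each library, split by the summed Tcf7, Lef1 and Ccr7 level at 500 CPM (filled below, open above), on log axes with exact Poisson 95% intervals. In Runx3, Ctla4 in CD8 T cells stands at 82.4 above the limit and 278 below it, and in Runx3_fl at 632 and 629.

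In CD4 T cells that carried myeloid transcripts 10 receptors were lower in Runx3_fl and 9 in Runx3, where Havcr2 had a log2 ratio of 0.28. CD4 T cells with a Csf1r UMI had receptor levels with a median log2 ratio of -0.51 against those without in Runx3_fl and -0.99 in Runx3. The counts of lower receptors in this contrast have no share of all genes beside them. Ctla4 stood at 838 CPM with and 1256 CPM without a Csf1r UMI in Runx3_fl, and at 201 and 399 CPM in Runx3. Among CD4 T cells that passed no other class rule and had no Cd79a UMI (1276 and 96 cells), where the myeloid markers summed to 311 and 305 CPM, Ctla4 stood at 1300 and 469 CPM, Icos at 1461 and 457 CPM, Cd28 at 1336 and 638 CPM and Havcr2 at 227 and 63.0 CPM. The median log2 ratio there was -1.18, with 7 receptors 2-fold or more lower, and the T cell markers themselves differed by -0.65. The share of all genes past 2-fold is not given for that subset. In Runx3_fl the 491 CD4 T cells with Xist and no Y-linked UMIs differed from the 804 with the reverse by a median of 0.15, with no receptor 2-fold apart, and with the latter cells alone the library median was -1.66. The same choice gave -2.0 in CD8 T cells, -0.25 in NK cells and -1.16 in myeloid cells, in place of -1.98, -0.30 and -1.65.

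**Figure D5:**
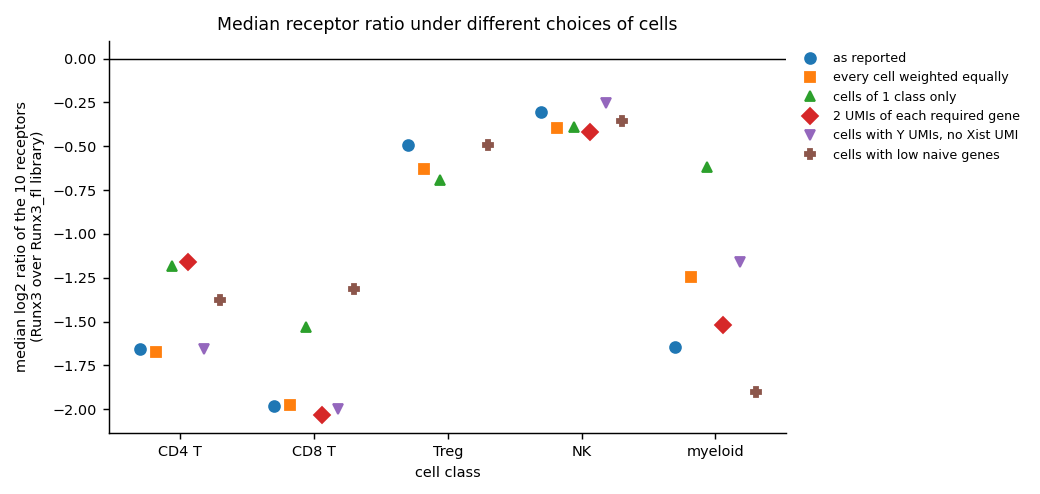
Median log2 ratio of the receptors (CPM plus 1, Runx3 over Runx3_fl, y axis) in each class, as reported and under 5 other choices of cells or weights. The points lie below 0 in each class, and the widest moves are in myeloid cells, from -1.65 as reported to -0.62 with cells of 1 class, and in CD8 T cells, from -1.98 to -1.31 with cells of low naive gene levels.

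Other genes of the same pathways did not share the receptors' differences evenly in CD4 T cells. Of 17 related receptors compared, 5 were 2-fold or more lower and 1 higher, with a median of -0.29. The lower extreme was Il2ra, the high-affinity interleukin receptor subunit, at 321 and 44.8 CPM, and the upper was Cd244a, an NK and T cell receptor, at 6.67 and 29.8 CPM. Of 9 ligands compared, 4 were 2-fold or more higher and 1 lower, with a median of 0.50. Ceacam1 stood at 0.532 and 11.8 CPM and Pdcd1lg2, which encodes a ligand of the Pdcd1 product, at 34.4 and 10.4 CPM. Ligands are mainly expressed by antigen-presenting cells, whose markers were higher in this class of Runx3, and their part in these values was not tested.

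Of 22 signalling genes downstream of the receptors, 1 was 2-fold or more lower and none higher, with a median of 0.13. The lower extreme was Sh2d1a, an adaptor of the SLAM receptors, at 126 and 52.5 CPM, and the upper was Traf5, an adaptor of the TNF receptor family, at 40.2 and 76.9 CPM. Of 18 activation-linked transcription factors, 6 were 2-fold or more higher and 3 lower, with a median of -0.08, led by Tcf7 and, on the lower side, Batf at 143 and 55.2 CPM.

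Over the 10 levels formed by 5 classes and 2 libraries, the genes whose levels ran most like each receptor were named by Pearson's r of log2 (CPM plus 1) among 8063 genes, as a description without a test, since the levels share libraries and depth. Ctla4 ran most like Rora (r = 0.97) and Icos (r = 0.96), and Icos most like Psma3 (r = 0.97) and Ctla4. Cd28 ran most like Atxn1 (r = 0.98) and Cd2 (r = 0.97). Tnfrsf4 was nearest to Prickle1 (r = 0.96) and Hif1a (r = 0.93), Tnfrsf9 to Csnk1g3 (r = 0.95) and Fnbp1 (r = 0.94), and Tnfrsf18 to Rabgap1l (r = 0.98) and Lnx2 (r = 0.95). Havcr2 was nearest to Ndufs8 (r = 0.99) and Mrpl54 (r = 0.97), Tigit to Cdc27 and Virma (r = 0.96 for both), Pdcd1 to Ercc6l2 (r = 0.96) and Cpsf2 (r = 0.94), and Lag3 to Pym1 (r = 0.95) and Gm4258 (r = 0.94). Ctla4 and Icos, neighbours on chromosome 1, were the only receptors to name each other.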

How the data were processed

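Each of the 2 libraries was made with 10x Genomics 3′ chemistry from colon lamina propria cells. The deposited files hold UMI counts per gene and cell, which the authors made with Cell Ranger 7.1.0 per the file headers, in filtered matrices that were not normalized. The submitters' processing notes name the mm10 build and Seurat 4. Whether intronic reads were counted is not given in the sources used here. No per-sample column was left unused.

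The 10 receptors and the gene lists were chosen with earlier results of these data known. 1 gene of the naive T cell list is not reported here, and the list and the split by naive genes were computed without it, which changes their values. Cells with 200 to 6000 genes and at most 15% mitochondrial UMIs were kept, as the study states. The upper limit on genes was the only treatment of doublets. A cell could belong to more than 1 class. Within each library and class, a gene's UMIs were added up and divided by the class total. Levels carry exact Poisson intervals, folds the exact conditional interval of the counts, and shares Clopper-Pearson intervals, all at 95% and for counting error only. The fold and its interval add nothing, and the log2 ratio adds 1 CPM. With 1 library per group no test was run, and 2-fold was the limit for a called difference among genes at a mean of 5 CPM or more. A count of 0 was taken to allow 3 counts. All 10 receptors are named in every class, together with the gene of the largest positive and negative ratio of each list and the 2 genes most like each receptor at a mean of 10 CPM or more. Alternatives with under 20 cells in a class, a limit set after seeing the data, were left out. The scripts were tested on simulated data. Tables were handled with pandas 2.3.3 and numpy 2.4.6 in Python 3.11.15, intervals with scipy 1.17.1 and figures with matplotlib 3.10.9.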

Additional observations from a re-analysis of the deposited data

Results flagged for a closer look

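Tnfrsf4 differed between the libraries in opposite directions across classes. Its log2 ratio (CPM plus 1, Runx3 over Runx3_fl) was 1.08 in CD8 T cells, against -1.45 in CD4 T cells and -1.60 in myeloid cells, and the difference between classes was not tested. In CD8 T cells that passed no other class rule and had no Cd79a UMI, it stood at 8.52 and 9.50 CPM. The Runx3 value came from 46 cells with too few UMIs to tell whether the 2-fold difference remained.

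For 3 receptors the Treg to CD4 T cell ratio had opposite signs in the libraries, and these differences were not tested. The log2 ratio of Icos was -0.57 in Runx3_fl and 0.45 in Runx3, that of Havcr2 was -0.34 and 0.79, and that of Cd28 was -0.81 and 0.34. Runx3_fl had 38 Tregs and Runx3 had 60. A Csf1r UMI was seen in 39.5% of Tregs and 10.8% of CD4 T cells of Runx3_fl. In Runx3 these shares were 31.7% and 35.7%, and the part of mixed droplets in the ratios was not tested.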

How the results depend on the processing

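The median of the receptors kept its direction under every alternative that gave a value in each of the 5 classes and both Treg comparisons. The CD4 T cell median of -1.66 became -1.18 with cells that passed 1 class rule only, -1.16 with 2 UMIs required of each class gene, -1.09 with cells thinned before the class rules, -1.43 with 10 CPM added and -1.38 with cells below the naive gene limit, an alternative added after seeing the data. Between 5 and 9 receptors were 2-fold or more lower there, and the share of all genes is not given for these alternatives. The NK median became -0.020 after subtracting the B cell level, and the Treg to CD4 T cell median in Runx3_fl became 0.82 with cells of 1 class and 0.80 without Csf1r, Ncr1, Cd79a or Cd8a UMIs, also added later. Among single receptors past 2-fold, signs turned for Tnfrsf9 in CD4 T cells (1.15, thinned first), Ctla4 after B cell subtraction in NK (4.98) and myeloid cells (4.33), Tnfrsf4 in myeloid cells of 1 class (0.16) and, under the 5 CPM needed to be compared, Pdcd1 in myeloid cells thinned first (0.24). For Ctla4 the B cell level was above the class level in Runx3_fl, so its subtracted values give no direction. The causes were not tested.

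No paired analysis was possible because each group has 1 library and no test was run, and leaving out a replicate was not possible either. Classes with under 20 cells gave no value, namely thinned CD8 T cells and Tregs, Tregs with 2 UMIs required or with Y-linked UMIs only, and CD4 T cells, CD8 T cells and Tregs without any naive gene UMI. Pdcd1 and Lag3 rest on at most 29 UMIs in each T cell class of Runx3, which limits their precision.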
